A study of Mus musculus with 2 samples.

Results

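The 33 genes described here are markers of brain regions around the hippocampus: the striatum (8 genes), the thalamus (7), the neocortex (9), the subiculum (3) and the hypothalamus (6). They were chosen by name, as genes used to tell these regions apart, with earlier results of these data known. All 33 were found among the 55536 annotated genes of the deposited tables. The RNA came from the hippocampus of adult female mice of the strain B6CASTF1/J, a first-generation cross, aged 8 to 10 months. Animal 1 gave replicate 1 and animal 5 gave replicate 2, each as 1 library from 300 ng of RNA. No animal was treated and both share strain, sex and age range, so there is 1 group of 2 animals and no comparison of conditions. The labels place the tissue in a layer of the hippocampus without naming the layer, and they give both samples the same donor identifier. The 2 libraries are read as 2 animals from their animal numbers alone.

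The hippocampus lies under the neocortex, beside the thalamus and the lateral ventricle, and is continuous with the subiculum, its main output field. The striatum and the hypothalamus lie further off, and genes that name their neurons are often transcription factors, which set neuronal identity, or neuropeptides, which a few neurons make in large amounts. Few regional markers are limited to a single region, and several of these transcription factors are also made by hippocampal principal cells, interneurons, glia or vessels. In bulk tissue, fewer cells of a type and less RNA per cell cannot be told apart.

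The annotated genes received 34147402 expected counts in the library of animal 1 and 28356913 in that of animal 5. Levels are given in TPM, a share of all transcripts that divides by transcript length and so allows genes to be compared with each other. The 11 genes of hippocampal principal cells were all detected, with a summed level of 657 TPM in replicate 1 and 693 TPM in replicate 2, from the transcription factor Zbtb20 at 137 ± 10.4 TPM (SD, n = 2) and the endoplasmic reticulum protein Wfs1 at 106 ± 29.1 TPM down to the desmosome protein Dsp at 4.33 ± 0.884 TPM. The libraries differed most in genes of the choroid plexus, the epithelium in the ventricle that makes cerebrospinal fluid. All 8 of them had a higher ratio in replicate 2, and their summed level was 30.2 TPM in replicate 1 and 649 TPM in replicate 2. Ttr, which carries thyroid hormone, gave 21.8 and 615 TPM, Kl gave 4.97 and 11.4 TPM, and the potassium channel subunit Kcne2 was at 0 and 1.61 TPM.

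Genes that reached 1 TPM in each of the animals are called detected here, which held for 21 of the 33 genes (63.6%). Among all nuclear protein-coding genes the share was 59.1%, so the share among the 33 is near the background. The subiculum had 3 of 3 detected, the neocortex 8 of 9, the thalamus 5 of 7, the striatum 5 of 8 and the hypothalamus 0 of 6. Summed over their members, levels were 140 and 154 TPM for the striatum in replicates 1 and 2, 122 and 126 TPM for the neocortex, 43.8 and 34.4 TPM for the subiculum, 19.9 and 26.3 TPM for the thalamus, and 1.95 and 3.36 TPM for the hypothalamus. The median level of the 33 was 2.98 TPM, beside 4.16 TPM over all nuclear protein-coding genes. In 8 genes the level was at least 10 TPM in both libraries, and in 8 it was under 1 TPM in both. Foxp2, Tnnt1, Nxph4 and Avp reached 1 TPM in 1 library only.

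**Figure D1:**
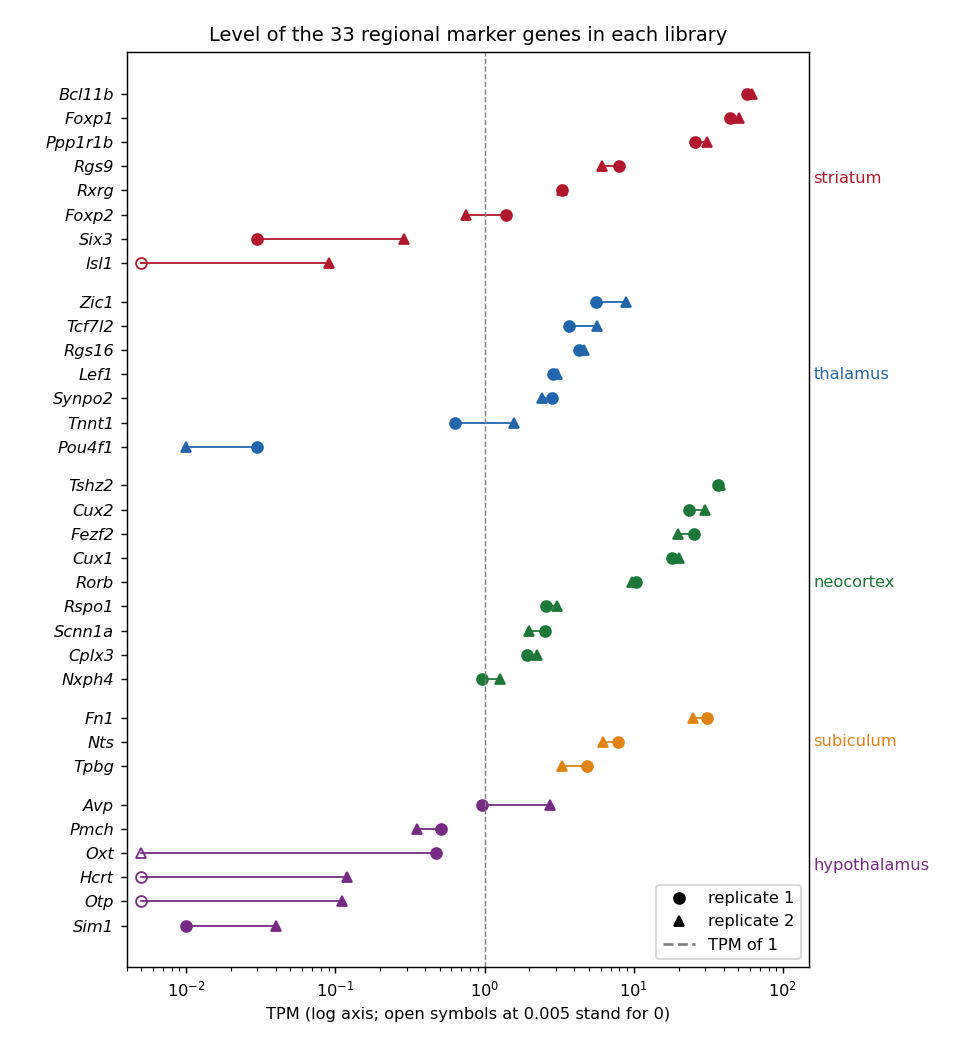
Level of each of the 33 genes in replicate 1 (circles) and replicate 2 (triangles), in TPM on a log axis, grouped by the region each gene marks. Open symbols at the left edge stand for a value of 0, and the dashed line is 1 TPM. Striatal and neocortical genes span from the top of the range to near or below 1 TPM, and no hypothalamic gene lies above 1 TPM in both libraries.

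Striatal genes split into a high and a low set. Bcl11b, a zinc finger transcription factor of striatal projection neurons that hippocampal principal cells also make, stood at 57.7 and 62.5 TPM in replicates 1 and 2, at percentiles 90.7 and 91.7 of nuclear protein-coding genes. Foxp1, a forkhead transcription factor, was at 44.3 and 50.6 TPM. Ppp1r1b encodes DARPP-32, the phosphatase regulator through which dopamine acts on striatal neurons, and was at 25.8 and 30.8 TPM. These 3 were well above the other striatal genes. In GRCm38, Bcl11b lies at chr12:107910403-108003602 and Foxp1 at chr6:98925338-99522721, both on the minus strand, and Ppp1r1b at chr11:98348404-98357796 on the plus strand. Rgs9, which shortens G protein signals in striatal neurons, was at 7.99 and 6.13 TPM. Rxrg, a retinoid receptor, was at 3.32 and 3.29 TPM.

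The other 3 striatal genes were at or below 1 TPM in at least 1 library. Foxp2, a forkhead factor of striatal projection neurons, was at 1.39 and 0.75 TPM. Six3 and Isl1, homeodomain factors of developing striatal neurons, gave 2 and 14 counts and 0 and 4 counts. Six3 was at 0.03 and 0.29 TPM, and Isl1 at 0 and 0.09 TPM, where the 3 counts that a count of 0 allows correspond to 0.112 TPM in replicate 1. Six3os1, a noncoding gene on the opposite strand that shares 106 exon bases with Six3, gave 1 and 27 counts, so both genes of the pair had most of their counts in replicate 2. Six3os1 was named after its values were seen. The strand setting of counting is not given in the sources used, and without strand the reads of such a pair cannot be told apart.

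Of 10 other striatal genes, 8 were detected. The phosphodiesterase Pde10a was at 29.4 and 28.0 TPM, and the enkephalin precursor Penk at 18.2 and 38.0 TPM. The lowest, the receptor Gpr6, was at 0.65 and 0.71 TPM. The TMM-scaled ratio of counts was higher in replicate 2 in 9 of the 10, and for 3 of them its exact 95% interval, which covers counting error, excluded 1 in that direction, where the background over all genes tested was 17.5%. Strip2, named after its values were seen, was lower, at -0.15 (interval -0.27 to -0.03).

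Thalamic genes ranged from under 0.1 TPM to under 10 TPM. Zic1, a zinc finger factor of thalamic, septal and meningeal cells, was the highest at 5.55 and 8.85 TPM. Tcf7l2, the transcription factor of Wnt signalling that marks thalamic neurons, was at 3.66 and 5.70 TPM. Rgs16, a regulator of G protein signals, was at 4.28 and 4.67 TPM. Replicate 2 was the higher library in all 3. Lef1, a Wnt transcription factor related to Tcf7l2, was at 2.89 and 3.06 TPM. Synpo2, an actin-binding protein, was at 2.83 and 2.43 TPM. Tnnt1, a troponin that marks thalamic relay neurons, had 11 and 20 counts, or 0.63 and 1.58 TPM. Pou4f1, the POU factor of the medial habenula, gave 3 counts and 1 count.

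Among 7 other thalamic genes, 6 were detected, led by Ntng1, a netrin-related axon guidance protein, at 20.1 and 20.8 TPM and the kinase Prkcd at 15.2 and 17.9 TPM. Gbx2, the homeobox gene of the developing thalamus, was lowest at 0.05 and 0.14 TPM. Of 6 habenular genes, 2 were detected: Nwd2 at 9.28 and 8.48 TPM and the tachykinin gene Tac2 at 1.96 and 1.77 TPM. Chrnb4, a nicotinic receptor subunit and the lowest of them, gave 0 and 3 counts. Of 5 septal genes, 2 were detected, the channel Trpc4 at 29.5 and 33.3 TPM and Zic4 at 2.04 and 1.29 TPM, while Lhx8, a factor of cholinergic neurons, had no count in either library.

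Neocortical genes gave 4 of the 8 genes at 10 TPM or more in both libraries. Tshz2, a zinc finger factor of deep-layer and retrosplenial neurons, was at 36.5 and 38.1 TPM. Cux2 and Cux1, homeodomain factors of upper-layer neurons, were at 23.5 and 29.8 TPM and at 18.1 and 20.2 TPM. Fezf2, the factor that specifies subcortically projecting neurons, was at 25.2 and 19.8 TPM. Of these 4, Fezf2 alone was lower in replicate 2. Rorb, the nuclear receptor of layer 4 neurons, was at 10.4 and 9.66 TPM. Rspo1, a secreted activator of Wnt signalling, was at 2.60 and 3.06 TPM. Scnn1a, a sodium channel subunit used to mark layer 4 neurons, was at 2.55 and 1.99 TPM. The complexin Cplx3, which marks subplate-derived neurons, was at 1.92 and 2.26 TPM, and Nxph4, a neurexophilin of the deepest layer, was at 0.96 and 1.26 TPM. Other neocortical genes were detected in 7 of 7, from Rasgrf2 at 55.9 and 56.2 TPM and Etv1 at 55.7 and 47.4 TPM to Ccn2 at 4.77 and 6.33 TPM.

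All 3 subicular genes were detected and all 3 were lower in replicate 2. Fn1, fibronectin, a matrix protein of subicular neurons and also of vessels and fibroblasts, was at 31.1 and 24.9 TPM, from a gene at chr1:71585520-71653200 on the minus strand. Nts, the precursor of the peptide neurotensin, was at 7.85 and 6.18 TPM. Tpbg, a membrane glycoprotein that dampens Wnt signalling, was at 4.88 and 3.28 TPM.

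Hypothalamic genes were at the bottom of the range. Avp, the vasopressin precursor, was at 0.96 and 2.74 TPM from 9.69 and 23 expected counts. Pmch, the precursor of melanin-concentrating hormone, gave 7 and 4 counts, or 0.51 and 0.35 TPM, and 435 of its 749 exon bases are shared with Parpbp on the opposite strand, which had 13 and 34 counts. Hcrt, the orexin precursor, gave 0 counts and 1 count. The homeodomain factor Otp gave 0 and 5 counts, and Sim1, a factor required for the paraventricular nucleus, gave 2 counts and 1 count. Oxt, the oxytocin precursor, gave 4.31 and 0 expected counts, where 3 counts in replicate 2 would be 0.39 TPM. For Otp, Hcrt and Oxt 1 library was at 0, so these genes were not detectable at this depth in that animal. Among 12 other hypothalamic genes, 1 was detected, Pomc at 1.34 and 1.1 TPM, named after its values were seen. The thyrotropin-releasing hormone gene Trh, at 0.92 and 2.08 TPM, and the peptide gene Cartpt, at 1.56 and 0.9 TPM, had the highest means without being detected. Kiss1 had no count in either library.

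Fractional counts of Oxt and Avp arise because reads can match both genes. The genes lie 3565 bases apart on chromosome 2 in GRCm38, Oxt at 130576173 to 130577054 on the plus strand and Avp at 130580620 to 130582554 on the minus strand. Each encodes a peptide joined to a neurophysin, its carrier protein. A search of the GENCODE M21 transcripts found an identical run of 127 bases, which spans exons 1 and 2 and lies wholly in the coding sequence of both. It is shown because reads within it name neither gene, with the shared run in capitals and 12 bases on either side in lower case.
Oxt-201, positions 156 to 282 of 537: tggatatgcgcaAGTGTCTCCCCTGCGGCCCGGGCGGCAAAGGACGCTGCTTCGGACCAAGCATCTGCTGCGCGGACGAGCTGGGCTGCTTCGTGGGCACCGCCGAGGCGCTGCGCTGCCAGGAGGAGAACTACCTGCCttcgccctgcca
Avp-201, positions 144 to 270 of 577: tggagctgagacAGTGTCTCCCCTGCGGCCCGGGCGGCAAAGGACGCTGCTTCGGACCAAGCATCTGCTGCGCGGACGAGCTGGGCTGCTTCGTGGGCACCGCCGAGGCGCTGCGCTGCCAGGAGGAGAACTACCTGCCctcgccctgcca
The deposited posterior SD of the count was 0.47 for both genes in replicate 1, against 0 in the other library. A separate estimate from the same libraries, the second transcript table, gave Oxt 10.5 and Avp 11.5 counts in replicate 1, then 0 and 21 in replicate 2. In replicate 1 the split between the 2 genes thus depended on the table, while in replicate 2 both tables gave every count to Avp.

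Ordered by mean level, neighbours were often within their spread. A pair was taken as separated where the gap in mean TPM was larger than either gene's SD and went the same way in each animal, and 8 of 32 adjacent pairs were. Bcl11b (60.1 ± 3.37 TPM, SD, n = 2) was above Foxp1 (47.4 ± 4.46), Foxp1 above Tshz2 (37.3 ± 1.12), and Tshz2 above Ppp1r1b (28.3 ± 3.51). From Ppp1r1b through Fn1 (28.0 ± 4.36), Cux2 (26.7 ± 4.43) and Fezf2 (22.5 ± 3.82) to Cux1 (19.1 ± 1.49), no gene was separated from the next. Cux1 was above Rorb (10.0 ± 0.509) and Rorb above Zic1 (7.2 ± 2.33). The remaining separated pairs were Nts above Tcf7l2, Rxrg above Lef1 and Foxp2 above Pmch. Rxrg above Lef1 rests on a small SD of 2 values. In the second transcript table Rxrg was at 3.115 and 3.129 TPM and Lef1 at 2.884 and 3.21 TPM, so Lef1 was above in replicate 2. The top of this order also depended on the table. In the second transcript table Foxp1 was at 70.2 and 67.1 TPM and Bcl11b at 49.8 and 53.5 TPM, so that Foxp1 led. Cux2 was lower there, at 15.9 and 19.8 TPM, and Foxp2 higher, at 3.28 and 1.28 TPM.

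Ratios between the animals were formed from counts with TMM scaling, as replicate 2 over replicate 1 on the log2 scale, with an exact 95% counting interval. They compare 2 libraries, not conditions, and intervals cover counting error only. A mean count of at least 10 was reached by 25 genes. Their median log2 ratio was 0.08, beside -0.01 over all 18612 genes tested. The interval excluded 1 with a higher level in replicate 2 for 9 of the 25 (36%), where the background over all genes tested was 17.5%. It excluded 1 with a lower level in replicate 2 for 5 of the 25 (20%), where the background was 21.5%. Of the 11 genes of hippocampal principal cells, 5 were higher and 4 lower in replicate 2 by the same rule, with a median log2 ratio of -0.055. No gene was called at least 2-fold apart among the 22 with a mean count of at least 50, and 1.1% of all genes with that count were. Scaling by the ERCC spike-ins, synthetic RNAs added to each library, in place of TMM moved the median of all genes tested to -0.25 and that of the 25 genes to -0.16, and left 3 of the 25 higher and 14 lower. Over all genes tested, that scaling gave 4.44% higher and 54.4% lower.

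The 9 genes higher in replicate 2 came from 4 regions. Avp had the largest ratio, 1.29 (interval 0.33 to 2.70), on a mean count below 50. Its interval leaves out the split of shared reads between Avp and Oxt, which in replicate 1 depended on the table. The second transcript table gave Avp 11.5 and Oxt 10.5 counts in replicate 1, then 21 and 0 in replicate 2. For Cplx3 the ratio was 0.91 (0.40 to 1.49), from 48 and 77 counts. Tcf7l2 followed at 0.50 (0.24 to 0.77) and Ppp1r1b at 0.43 (0.29 to 0.58). Zic1 was at 0.31 (0.10 to 0.53) and Cux2 at 0.28 (0.18 to 0.38). The other 3 differences were small: 0.12 (0.02 to 0.22) for Cux1, 0.10 (0.05 to 0.15) for Bcl11b and 0.08 (0.01 to 0.16) for Tshz2. Under spike-in scaling these 3 turned to -0.12, -0.14 and -0.16, with intervals below 0. Avp at 1.07, Cplx3 at 0.68 and Ppp1r1b at 0.19 kept an interval above 0 there, while those of Tcf7l2 at 0.26, Zic1 at 0.07 and Cux2 at 0.04 then held 0.

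The 5 genes lower in replicate 2 included all 3 subicular genes. Synpo2 was at -0.38 (-0.60 to -0.16), from 438 and 281 counts, and Fezf2 at -0.34 (-0.48 to -0.21), from 1127 and 744 counts. Nts, at -0.34 (-0.68 to -0.01) from 190 and 125 counts, and Tpbg, at -0.27 (-0.55 to -0.0047) from 278 and 192 counts, had intervals that came close to 0. Fn1 was at -0.13 (-0.21 to -0.06). Spike-in scaling left the intervals of all 5 below 0, but it lowers every ratio and so could not have undone these calls. The interval of Tpbg held 0 with total count scaling (-0.54 to 0.0046) and in the second transcript table (-0.49 to 0.02). Of the 11 genes whose interval held 1, Tnnt1 had the highest ratio, 0.99 (-0.01 to 2.33), and Foxp2 the lowest, -0.40 (-0.89 to 0.06). Rorb was nearest to equal, at -0.03 (-0.13 to 0.07). The median was -0.27 for the subicular genes, -0.04 for 6 striatal genes, 0.08 for 9 neocortical genes and 0.22 for 6 thalamic genes. For Rspo1 the TPM was higher in replicate 2 while the count ratio was -0.14 with an interval that held 1 (-0.60 to 0.32), and noncoding transcripts held 0% and 28.8% of its TPM in the first transcript table but 25.7% and 57.8% in the second.

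**Figure D2:**
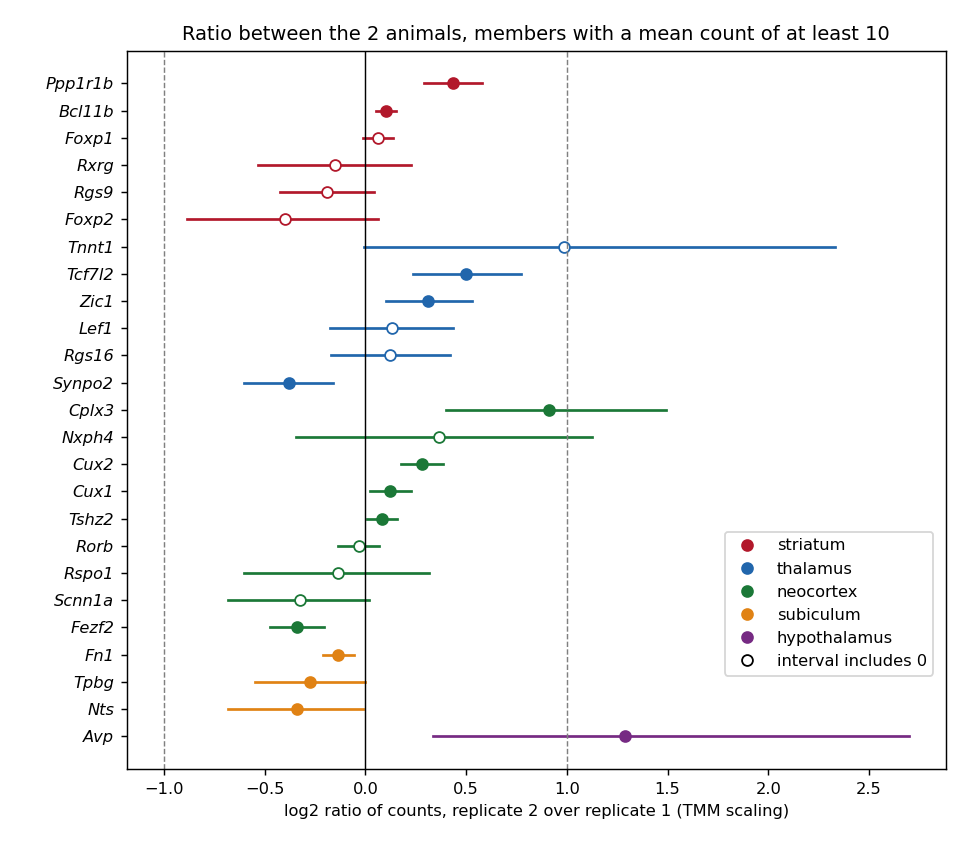
The log2 ratio of TMM-scaled counts, replicate 2 over replicate 1, for the 25 genes with a mean count of at least 10, coloured by region. Bars are exact 95% counting intervals, filled points mark intervals that exclude 0, and dashed lines mark 2-fold. The 3 subicular genes are all left of 0, and Avp and Cplx3 have the largest ratios among filled points.

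Several of these genes are also made by cells other than regional neurons, whose own genes give the values beside which the ratios stand. Meningeal fibroblast genes, 8 of 8 detected, summed to 95.6 TPM in replicate 1 and 77.4 TPM in replicate 2. Their median log2 ratio was -0.51, and 5 of the 8 had an interval below 0, among them the matrix protein Dcn at 34.4 and 25.8 TPM and the transporter Slc22a6, the lowest of the list, at 1.98 and 1.27 TPM. The highest, Igf2, at 36.7 and 34.1 TPM, had an interval that held 0. Fn1 and Synpo2 were lower in replicate 2 too, and Zic1 was higher. Smooth muscle and pericyte genes, 6 of 8 detected, had a median ratio of -0.10 and summed levels of 83.4 and 78.1 TPM, led by Vtn at 39.5 and 31.2 TPM and Rgs5 at 25.7 and 28.9 TPM, with Cnn1 lowest at 0.49 and 0.41 TPM. Of the 7 smooth muscle and pericyte genes with a ratio, 3 had an interval below 0 and 1 above 0. The part of these cells in the ratios of Fn1, Synpo2 and Zic1 was not tested.

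Oligodendrocytes also make Tcf7l2. Their 10 genes were all detected, with a median log2 ratio of 0.14. The interval lay above 0 for 6 of the 10 and below 0 for 2. The myelin protein Mbp, at 753 and 720 TPM, was 1 of those below 0, and Enpp6, a marker of newly formed oligodendrocytes and the lowest of the list, was at 2.75 and 2.86 TPM. Of those above 0, Opalin had a ratio of 0.81, Mog 0.60, Mag 0.48 and Cnp 0.42. Gpr17, the other gene with an interval below 0, had a ratio of -0.43. Bcas1 was at -0.02 and Enpp6 at 0.15, each with an interval that held 0. Apart from Enpp6, the genes with these ratios were named after their values were seen. Endothelial cells also make Lef1. Their 8 genes summed to 106 and 109 TPM, with a median ratio of -0.05, 4 ratios above 0 and 4 below, and 2 intervals clear of 0 each way. The highest were Ly6c1 at 30.4 and 31.7 TPM and Slco1a4 at 16.0 and 23.8 TPM, and the lowest was Emcn at 2.5 and 3.63 TPM. Cldn5 at -0.31 and Flt1 at -0.19, named after their values were seen, were the 2 with an interval below 0. Genes of GABAergic interneurons, 8 of 9 detected, summed to 526 and 483 TPM with a median ratio of -0.09, led by Sst at 202 and 177 TPM and Gad1 at 191 and 177 TPM, with Nkx2-1 lowest at 0.16 and 0.4 TPM. Of the 9 GABAergic genes, 4 had an interval below 0 and 0 had one above. The part of these cell types in the levels of Tcf7l2, Lef1 and the other genes was not tested.

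Transcripts of 1 gene can encode different proteins, and the transcript tables split each gene's level among them. Of the 21 detected genes, 18 had at least 2 transcripts at 10% or more of the gene's TPM. Rgs16, Rorb and Nts had 1. The counts in this paragraph were not set beside all detected genes, so they describe these 21 only. The leading transcript was the same in both libraries for 14 genes, and the same in both libraries and both tables for 9: Ppp1r1b-201, Bcl11b-201, Tcf7l2-209, Rgs16-201, Rorb-203, Cux1-211, Fezf2-201, Tshz2-202 and Nts-201. For the other 12 detected genes, the leading transcript depended on the library or the table. For Cux2 it was Cux2-210 in replicate 1, Cux2-205 in replicate 2, and Cux2-202 in both libraries of the second table. A gene's TPM also counts transcripts annotated as noncoding. In the first table, noncoding transcripts held 40.54% and 39.17% for Cux2, 39.82% and 43.91% for Zic1, and 53.59% and 38.98% for Ppp1r1b. The second table gave 32.31% and 27.73% for Cux2. For Bcl11b, Fezf2 and Tshz2 the share was 0% in both tables.

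Cux1 is the clearest case of 2 products. On the minus strand of chromosome 5, where the gene spans chr5:136248135-136567490 in GRCm38, its transcripts end their coding sequence at different positions. Those that end at 136274794, such as Cux1-201 with 1426 residues, encode the homeodomain factor. Those that end at 136248914, such as Cux1-211 with 676 residues, encode CASP, a Golgi membrane protein that shares the first exons of the gene but lacks the homeodomain. Transcripts with the CASP ending held 54.6% of the gene's TPM in replicate 1 and 55.9% in replicate 2, and those with the homeodomain ending held 27.0% and 27.1%. The second transcript table gave 50.9% and 48.7% for the CASP ending and 28.3% and 26.8% for the homeodomain ending. The CASP ending was thus ahead in both animals and both tables. In counts, which are not divided by length, the longer homeodomain transcripts had more: 1047 and 910, against 568 and 541. A short transcript, Cux1-208, held 14.8% and 10.1%. The level of the homeodomain transcripts was 4.88 and 5.47 TPM, well under the 18.1 and 20.2 TPM of the gene.

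Rgs9 also has alternative endings, on the minus strand at chr11:109225355-109298129. The long protein, of 675 residues in Rgs9-201, is the form known from striatum, and the short one, of 484 residues in Rgs9-204, is the form known from photoreceptors. Transcripts with the long ending, at 109225629, held 64.0% of the gene's TPM in replicate 1 and 61.3% in replicate 2. The short ending, at 109235846, held 22.0% and 25.8%. In the second transcript table the long ending held 61.3% and 53.5% and the short one 20.7% and 24.3%. The long ending was ahead in every case, although replicate 1 put most of it on Rgs9-202, which had 110 counts there and 0 in replicate 2. Rgs9-202 has 1347 coding bases against 2025 in Rgs9-201, so it does not encode the whole long protein. In replicate 1, Rgs9-201 alone held 24.25% of the gene's TPM, near the 22.0% of the short ending. The last 27 coding bases and the stop codon, in capitals, show how the endings of both genes differ, read from GENCODE M21.
Cux1-201, homeodomain ending: cgggaggagcccatcgaatgggagttcTGA
Cux1-211, CASP ending: ggagcagcagctggtgacttatggcagTGA
Rgs9-201, long ending: gagagcctggcggaagggaaggcgggcTGA
Rgs9-204, short ending: caactcaaaaaggagctgcctcctaaaTGA

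**Figure D3:**
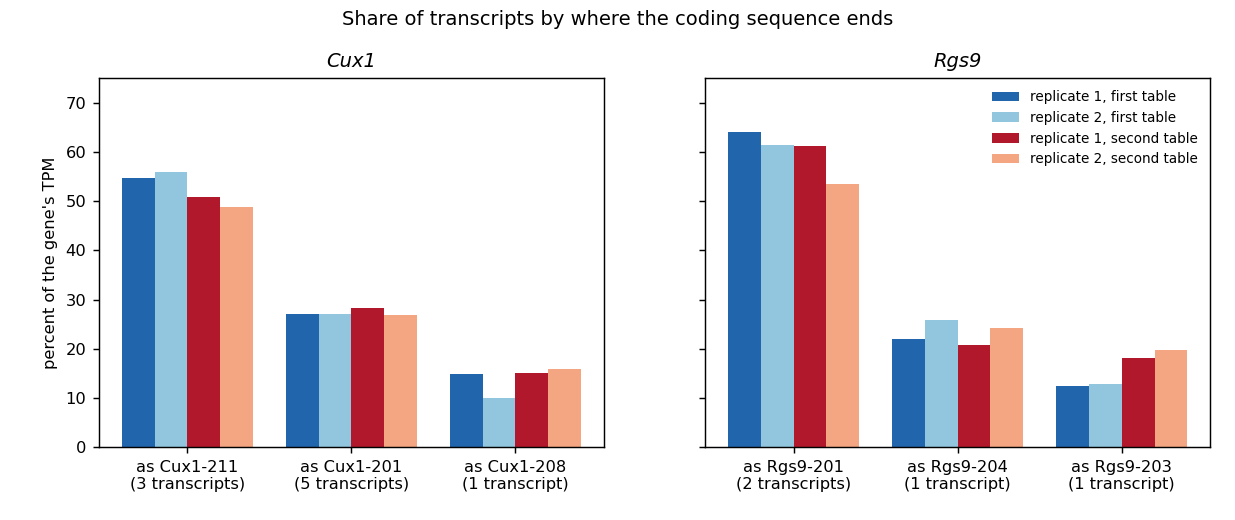
Percent of the gene's TPM in transcripts that share a coding end, for Cux1 (left) and Rgs9 (right), each end named by 1 of its transcripts. Bars are the 2 libraries in each of 2 transcript tables, with no error bars, and ends below 5% in replicate 1 are not drawn. The Cux1-211 end and the Rgs9-201 end are the tallest in all 4 estimates.

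In other genes the shares were stable or varied with the estimate. Bcl11b-201, with 2652 coding bases, held 57.7% and 56.7% of its gene and Bcl11b-203, with 2436, held 41.7% and 42.5%, with nearly the same shares in the second table (57.5% and 56.6% for Bcl11b-201). Tshz2-202 and Tshz2-201, which both have 3090 coding bases, held 48.0% and 47.5% and 30.4% and 32.6%. For Fezf2, Fezf2-201 held 74.0% and 69.1%. Ppp1r1b-201 held 45.0% and 57.8%, and Ppp1r1b-202, a transcript annotated with a retained intron, held 34.8% and 38.0% in the first table but 6.89% and 12.1% in the second. Cplx3-201, which has 474 coding bases, held 32.3% and 64.6% of its gene, from 36.0 and 70.8 counts, and the short Cplx3-203 held the rest from 12.04 and 6.22 counts. In the second table Cplx3-201 held 27.4% and 46.9%, so Cplx3-203 led there in both libraries. In the first table, the higher count of Cplx3 in replicate 2 thus lay in Cplx3-201, while the TPM of the gene differed little. Shares of Foxp1 also differed between tables: Foxp1-204 held 32.7% and 27.6% in the first and 8.3% and 5.03% in the second.

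Genes with low levels differed among themselves in the sequence before the start site. RefSeq windows on GRCm38.p6 that lie within 200 bases of the start of the gene's most counted transcript were found for 24 of the 33 genes. The motif searched was CG, which reads the same on both strands. In the 250 bases before the start, 92.1% of all 32851 windows held at least 1 CG and 37.8% held at least 10, with a median of 6. Among the 24 genes the median was 12 and 14 (58.3%) held at least 10. The 14 detected genes had a median of 14, and the 10 others a median of 8.5. Of these 10, 9 fell into 2 kinds, and Tnnt1 held 6. The transcription factors Six3, Isl1, Pou4f1, Otp and Sim1 held 10 to 47, and all 5 had at least 10. The 4 hypothalamic peptide genes Avp, Hcrt, Oxt and Pmch held 3 to 7. Nts, a peptide gene that was detected, held 2, fewer than any of these 4. The 7 detected transcription factors with a window held 6 to 40, so they overlapped with those that were not detected. A count of CG describes the window and says nothing of its methylation, which was not measured.

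The windows of 4 genes show the range, with each CG in capitals: Rorb at 10.0 TPM with 18, Pou4f1 at 0.02 TPM with 47, Hcrt at 0.06 TPM with 5, and Pmch at 0.43 TPM with 3. Each is the 250 bases before the start, 5′ to 3′ on the gene's strand.
Rorb, chr19:19111197-19111446, minus strand: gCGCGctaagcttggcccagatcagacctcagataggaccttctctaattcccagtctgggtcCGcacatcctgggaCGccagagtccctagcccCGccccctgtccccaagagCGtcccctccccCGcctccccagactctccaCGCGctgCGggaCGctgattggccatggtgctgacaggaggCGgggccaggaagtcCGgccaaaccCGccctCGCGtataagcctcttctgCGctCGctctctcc
Pou4f1, chr14:104468000-104468249, minus strand: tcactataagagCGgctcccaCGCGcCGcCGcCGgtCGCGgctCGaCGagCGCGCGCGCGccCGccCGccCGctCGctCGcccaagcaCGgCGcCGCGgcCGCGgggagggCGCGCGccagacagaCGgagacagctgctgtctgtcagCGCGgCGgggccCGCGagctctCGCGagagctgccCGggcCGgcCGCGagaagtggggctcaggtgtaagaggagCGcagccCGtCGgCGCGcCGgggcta
Hcrt, chr11:100762932-100763181, minus strand: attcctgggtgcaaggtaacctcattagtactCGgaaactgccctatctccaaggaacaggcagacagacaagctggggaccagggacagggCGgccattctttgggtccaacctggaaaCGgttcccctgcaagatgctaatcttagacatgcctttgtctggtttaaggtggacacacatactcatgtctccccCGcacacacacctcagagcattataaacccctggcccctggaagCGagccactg
Pmch, chr10:88090822-88091071, plus strand: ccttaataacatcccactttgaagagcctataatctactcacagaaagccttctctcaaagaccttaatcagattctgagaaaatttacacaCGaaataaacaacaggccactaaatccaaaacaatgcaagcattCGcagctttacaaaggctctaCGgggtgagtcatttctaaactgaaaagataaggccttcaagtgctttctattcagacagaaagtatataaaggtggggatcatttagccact

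**Figure D4:**
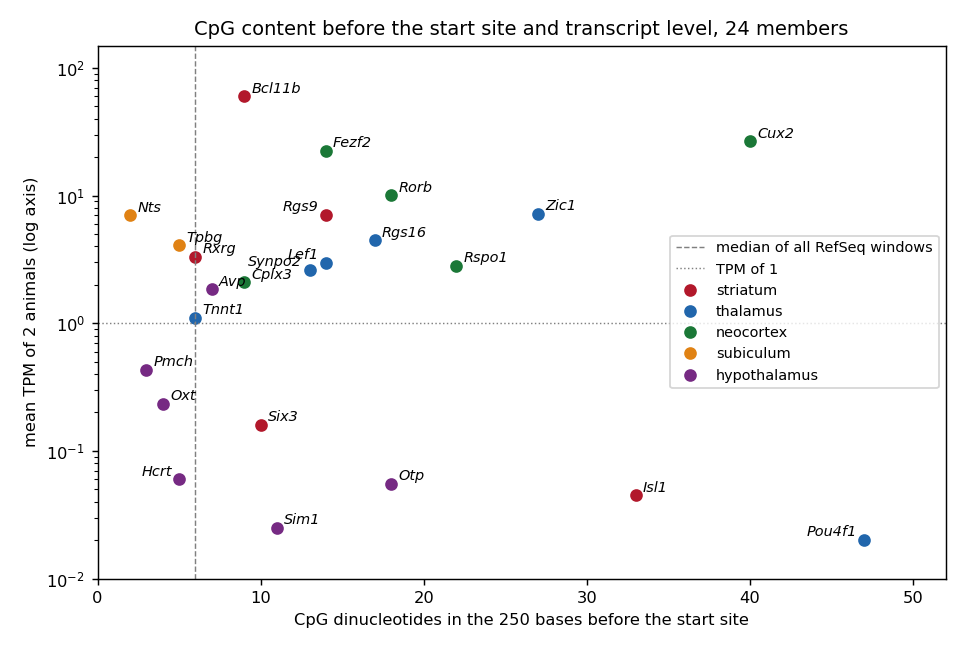
Number of CG dinucleotides in the 250 bases before the start site (x axis) against mean TPM of 2 animals on a log axis (y axis), for the 24 genes with a matching RefSeq window, coloured by region. The dashed line is the median of all windows, 6, and the dotted line is 1 TPM. Among genes under 1 TPM, the peptides Hcrt, Oxt and Pmch lie left of the dashed line and the transcription factors lie right of it.

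By role, 17 of the 33 genes encode transcription factors, of which 11 were detected and 6 (Foxp2, Six3, Isl1, Pou4f1, Otp and Sim1) were not. The 4 hypothalamic peptide genes were each under 1 TPM in at least 1 library. Exon bases were shared with another annotated gene by 11 of the 33, on the opposite strand for 10 of them and on the same strand for Foxp1. The share of all annotated genes with such an overlap was not taken. Partners not named above had at most 9 counts in either library, except Gm20696, which lies on the strand of Foxp1 with 101 and 78.8 counts, and Zic4, which shares 60 bases with Zic1.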

How the data were processed

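Per the labels and the accompanying file notes, total RNA with ERCC spike-ins was sequenced from 2 libraries with a directional kit and quantified on mm10 with GENCODE M21. Per the file headers, 1 gene table and 1 transcript table are laid out as by RSEM, and a further transcript table, called the second, as by kallisto. For versions, aligner and strand setting, the sources used here give nothing. The authors deposited expected counts without normalisation, estimated counts in the second transcript table, TPM and FPKM after their length normalisation, the percent of a gene's TPM per transcript, and the posterior SD of each count as a signal in counts. Spike-ins, 0.178% and 0.212% of expected counts, were left out of library sizes.

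Expected counts were rounded and scaled by TMM in edgeR 4.0.16 under R 4.3.3, with effective libraries of 34037549 and 28448459 counts. Ratios needed a mean count of at least 10, and a 2-fold call needed a mean of 50 counts or more, a log2 ratio of 1 or more either way, and a 95% Clopper-Pearson interval (exact) that excluded 1. No p-value was computed, since there is 1 group of 2 libraries. The prior count was 2 and the floor 3 counts. The labels name no molecular identifiers, so intervals and floors cover counting error only. The libraries were not identical, with a median chi-square of 3.01 per gene. Ratio calls were tested on simulated data that held counting error alone and large changes. That test does not cover small changes or the spread between animals. Percent of TPM per transcript was recomputed from TPM.

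All 33 genes are named. Of each of the 13 other lists, the 2 genes of highest and the 1 of lowest mean TPM are named, except 1 gene that is not reported here, and Ctgf is listed under its current symbol Ccn2. The genes and lists were chosen with earlier results of these data known. Sequences came from RefSeq (GRCm38.p6) and GENCODE M21. Alternatives were DESeq2 1.42.0 size factors, spike-in and total count scaling, the second transcript table, FPKM, TPM over nuclear protein-coding genes, other detection limits, no filter on the mean count, a prior count of 0.5, and each library alone. Python 3.11.15, pandas 2.3.3, SciPy 1.17.1 and matplotlib 3.10.9 were used.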

Additional observations from a re-analysis of the deposited data

How the results depend on the processing

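The number of genes detected in both animals, 21, was 12 with a limit of 5 TPM. It was 21 by FPKM, 23 in the second transcript table, 24 by a limit of 10 counts, and 25 both with a limit of 0.5 TPM and with TPM over nuclear protein-coding genes. Each library alone gave 22 to 24. With no filter on the mean count, 3 genes (Six3, Otp and Avp) were at least 2-fold apart in place of 0, beside 2.26% of all genes, and the 5 other settings gave 0. The number of genes whose counting interval excluded 1 was 14 and ranged from 13 to 17. Under spike-in scaling the log2 ratio of Bcl11b was -0.14, that of Cux1 -0.12 and that of Tshz2 -0.16, each above 0 with TMM. Of 125 ratios of single genes under an alternative, these 3 reversed, 9 moved past their interval and 113 stayed within it; all 12 changes came with spike-in scaling. Of 165 levels, 67 moved by more than the SD of 2 animals, which is itself poorly known. Of these, 23 came with FPKM and 28 with TPM over nuclear protein-coding genes, which change the unit of all levels. The second transcript table moved 16 levels and left 17 within the SD. A single library could not move a level by this rule, because each of 2 values lies within the SD of their mean. No paired analysis was possible because there is 1 group. Genes under about 10 counts, among them all hypothalamic genes but Avp, are limited by depth.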
